A study of Homo sapiens with 15 samples.

Results

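The Fanconi, recombination and checkpoint repair genes are 41 protein-coding genes whose products repair DNA crosslinks and double-strand breaks and signal DNA damage. They were taken by symbol from 21519 counted genes, and their splicing events were taken where at least 10 reads lay on the event in all 15 libraries, which left 276 of 76301 events in 20 of the genes. The study measured polyadenylated RNA of HEK-293 cells, a human embryonic kidney line transformed with adenovirus DNA. Control cells were untreated, and GEMIN5 cells carried the plasmid pcDNA3Xpress-Gemin5, delivered with Lipofectamine LTX and harvested 24 h later. Since control cells were untreated, the effect of GEMIN5 and that of transfection cannot be told apart. RNA came from the cytoplasmic lysate (Input) and from fractions 8 to 12 of the 12 fractions of a sucrose gradient (Polysome), all in cycloheximide, which halts elongating ribosomes. The 4 groups were Input control (4 libraries), Input GEMIN5 (3 libraries), Polysome control (4 libraries) and Polysome GEMIN5 (4 libraries). The labels call them independent biological samples and name no culture or lysate, so the p-values below rest on the spread among these libraries, which may be partly technical. In bulk RNA of this kind, fewer cells with an mRNA and less mRNA per cell cannot be told apart.

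A crosslink that stalls a replication fork is recognised by the Fanconi core complex, which with the conjugating enzyme UBE2T attaches ubiquitin to the pair FANCD2 and FANCI. Nucleases then unhook the lesion, and the broken ends are resected and repaired by homologous recombination, in which mediators such as BRCA2, PALB2 and RAD51C prepare the DNA for strand exchange. The kinases ATM and ATR signal the damage to CHEK2 and CHEK1, and MDC1, RNF8, RNF168 and TP53BP1 mark the surrounding chromatin. GEMIN5 is an RNA-binding protein of the SMN complex that also binds ribosomes.

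The libraries held 11191417 to 18407933 gene counts. GEMIN5 itself was at 12.4 to 15.9 CPM (gene counts relative to library size, scaled by edgeR's TMM factors) in Input control and at 1318 to 1542 CPM in Input GEMIN5. It was at 4.19 to 7.18 CPM in Polysome control and at 647 to 1034 CPM in Polysome GEMIN5. The TMM factor was 0.354 to 0.488 in Input GEMIN5, 0.971 to 1.03 in Input control and 1.27 to 1.55 in the polysome libraries. All 6 markers of HEK-293 cells were counted in every library except Input GEMIN5 replicate 1, where PAX2 was at 0. All 21 liver markers were also counted in every Polysome control library, where they summed to 123 to 217 CPM by library size, while they summed to 1.34 to 138 CPM in Input control, 2.41 to 3.66 CPM in Input GEMIN5 and 1.32 to 2.11 CPM in Polysome GEMIN5. Within Input control, ALB was at 588 and 414 counts in replicates 3 and 4 and at 0 in replicates 1 and 2. The 8 blood markers summed to 12.5 to 17.8 CPM in Polysome control and to 4.57 to 7.32 CPM across the other groups, and S100A8 was at 0 in all of these. The part of these markers' RNA in the results below was not tested. Leaving out 1 library cannot test it, since all 4 Polysome control libraries held the liver markers. For some calls that depend on 1 library, values without it are given below.

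In Input GEMIN5 cells RAD51C, FANCI and CHEK2 had more reads inside an intron into which an annotated short transcript reads or before which it ends. RAD51C is a mediator of recombination, FANCI is one of the pair that receives ubiquitin, and CHEK2 is the kinase downstream of ATM. The junctions of the short and the long transcript are shown because, in RAD51C and FANCI, reads inside these introns can come from the short form. They can also come from longer RNA that keeps the intron, and the end of the short form was not measured. The values below are therefore not the share of the short form. Each line gives the last 30 bases of the shared exon in lower case and, in capitals, the first bases that follow in that transcript (GENCODE release 29, GRCh38, transcript strand, 5′ to 3′).
RAD51C short: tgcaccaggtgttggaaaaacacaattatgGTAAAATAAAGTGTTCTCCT
RAD51C long: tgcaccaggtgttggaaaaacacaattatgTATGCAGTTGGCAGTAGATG
FANCI short: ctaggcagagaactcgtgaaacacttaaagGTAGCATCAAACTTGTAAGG
FANCI long: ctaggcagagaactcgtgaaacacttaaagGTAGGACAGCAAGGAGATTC
CHEK2 short: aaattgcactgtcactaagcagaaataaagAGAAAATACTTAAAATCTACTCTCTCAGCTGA
CHEK2 long: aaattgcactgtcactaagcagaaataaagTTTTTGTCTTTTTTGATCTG
In RAD51C the shared exon ends at chr17:58695160-58695189 on the plus strand, the short form reads on into the intron, and its reading frame ends 4 bases past the junction after 135 codons, against 376 codons in the long form. In FANCI the shared exon is exon 10 and ends at chr15:89268496-89268525 on the plus strand, and the short form meets a stop codon that ends 18 bases into the intron. In CHEK2, on the minus strand, the shared exon ends at chr22:28724977-28725006 and the short form splices to an extra exon that starts at position 28721631, where a stop codon ends 32 bases past the junction after 207 codons, against 543 codons in the long form. No annotated CHEK2 transcript reads from that extra exon into the intron after it. The long form skips the extra exon, so reads on the intron after it measure neither CHEK2 form shown.

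The splicing table gives the percent spliced in (PSI) of an event, the share of its reads that include the exon or the intron. FANCI, CHEK2 and RAD51C were named with earlier results of these data known, so their PSI values are a description without a test. The intron given for each gene was chosen as its tested event of largest PSI range in these data. It was taken from 36 tested events in FANCI, 9 in RAD51C and 6 in CHEK2. The spread between groups below follows in part from that choice. The RAD51C intron at chr17:58695190-58696692, of 1503 bases, had a PSI of 22.2%, 18.7%, 22.4% and 22.2% in Input control and of 48.6%, 51.9% and 57.2% in Input GEMIN5. It was at 22.9%, 28.5%, 19.1% and 23.7% in Polysome control and at 22.1%, 20.9%, 18% and 22.3% in Polysome GEMIN5. The 3 Input GEMIN5 libraries lay above all 12 others, which overlapped one another. Between 256 and 477 reads lay on this intron in each library. In Input GEMIN5, 133 to 164 of them were inside the intron and 121 to 174 were spliced across it.

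The FANCI intron after exon 10, at chr15:89268526-89273376, had a PSI of 33.3%, 45.4%, 54.8% and 56.5% in Input control and of 68.5%, 89.7% and 88.6% in Input GEMIN5. It was at 53.2%, 46.3%, 36.5% and 49.9% in Polysome control and at 48.6%, 50.0%, 42.2% and 52.4% in Polysome GEMIN5. Again the Input GEMIN5 libraries lay above all others, here on 16 to 37 reads per library. The CHEK2 intron after the extra exon, at chr22:28719486-28721517, had a PSI of 21.4%, 27.5%, 29.4% and 36.8% in Input control and of 87.0%, 86.5% and 94.9% in Input GEMIN5. It was at 12.7%, 34.7%, 15.6% and 20.6% in Polysome control and at 42.2%, 37.8%, 21.7% and 43.8% in Polysome GEMIN5. The Input GEMIN5 libraries stood apart, and the 2 polysome groups overlapped, on 21 to 70 reads per library. In Input GEMIN5 only 2 to 7 reads per library crossed the CHEK2 intron spliced, against 33 to 51 in Input control.

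**Figure D1:**
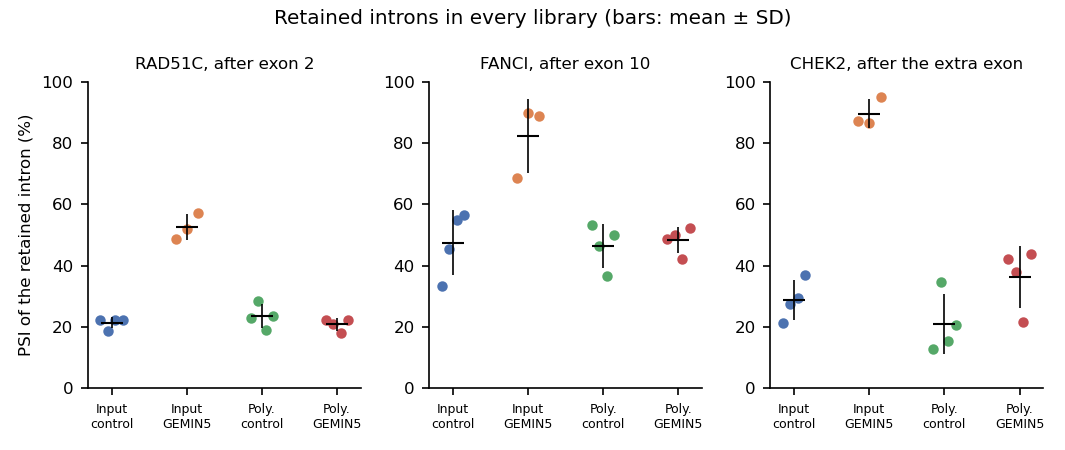
PSI in percent of the introns after RAD51C exon 2, FANCI exon 10 and the extra exon of CHEK2, 1 point per library by group, with bars at the mean ± SD. The 3 Input GEMIN5 libraries lie above the 12 others in each panel, at means of 52.6% (RAD51C), 82.3% (FANCI) and 89.5% (CHEK2). Each intron was chosen for its PSI range, so the separation is a description only.

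The middle of FANCI was covered less in Input GEMIN5. For 15 tested exons of the principal transcript between exon 11 and exon 30 the median of the exons' group mean PSI was 33.4% in Input control, 2.02% in Input GEMIN5, 27.4% in Polysome control and 28.7% in Polysome GEMIN5. For 6 exons between exon 5 and exon 10 it was 63.0%, 43.0%, 65.6% and 62.0% in the same order. In Input, the libraries of the 2 treatments did not overlap for any of these 21 exons, and in polysomes they overlapped for all of them. The share of all tested events without overlap was not computed, so nothing is read from these counts. Exon 20, for example, had a mean PSI of 40.6% in Input control and 1.11% in Input GEMIN5, against 32.4% in Polysome control and 31.2% in Polysome GEMIN5. Inclusion reads of exons 11 to 30 ran from 3 to 50 per exon in an Input control library and from 0 to 20 in an Input GEMIN5 library, while exclusion reads ran from 14 to 33 and from 27 to 46. Neighbouring exons can share the reads that skip them, so the 21 exons are not separate observations.

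**Figure D2:**
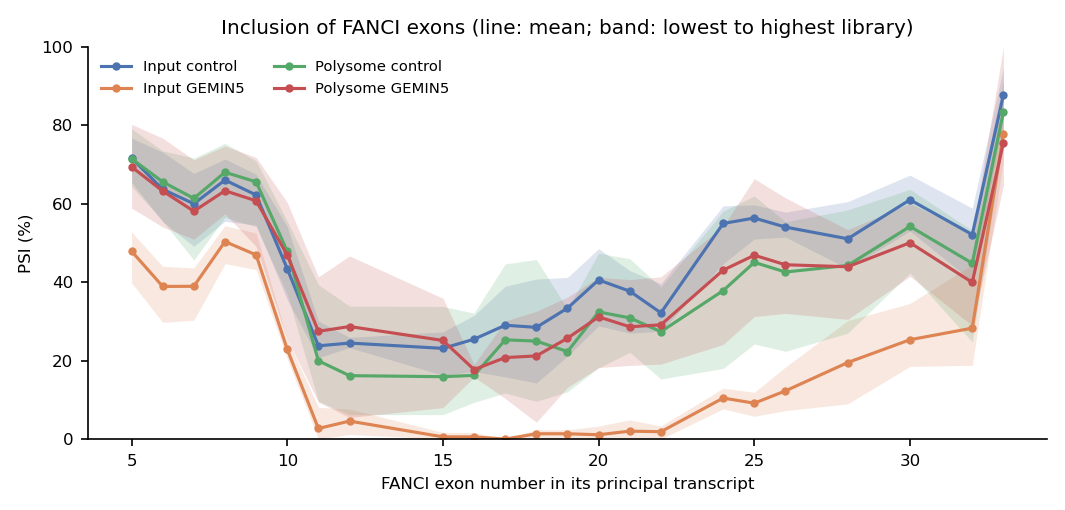
PSI in percent of tested FANCI exons by exon number in the principal transcript, with lines at the group means and bands from the lowest to the highest library. The Input GEMIN5 line lies below those of the other 3 groups from exon 5 to exon 30, and near 0 between exon 15 and exon 22 (0% to 2.02%).

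Across all members, 93 events in 18 genes entered limma's test on the log2 odds of inclusion reads against exclusion reads. In Input, 27 of the 93 passed an adjusted p of 0.05 between GEMIN5 and control, of which 21 lay in FANCI, 2 in RAD51C and 1 in CHEK2. The share over all 12696 events tested was 12.1%, and nothing is read from the counts in those 3 genes, which were named for their splicing. Outside those 3 genes, 3 of 42 events passed. The UBE2T exon at chr1:202334989-202335049 had a PSI of 97.1%, 96.4%, 96.1% and 96.1% in Input control and of 92.4%, 94.6% and 92.5% in Input GEMIN5 (limma log2 odds -0.98, SE 0.22, adjusted p = 0.0097). The FANCD2 exon at chr3:10043484-10043592, exon 13 of its principal transcript, fell from between 12.2% and 19.96% in Input control to between 0% and 1.97% in Input GEMIN5 (log2 odds -2.86, SE 0.56, limma adjusted p = 0.00474). It had 15 to 29 reads per Input library, of which 0 to 4 were inclusion reads, and FANCD2 has partial pseudogene copies that could take some of its reads. The third was an exon of the nuclease subunit MUS81 at chr11:65865017-65865145, at 100% in every Input control library and at 94.5%, 100% and 92.1% in Input GEMIN5. The FANCD2 and UBE2T exons did not overlap between the treatments. The MUS81 call (limma adjusted p = 0.0344) rested on 0 to 2 exclusion reads per library and was lost without any 1 of 6 Input libraries.

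In polysomes, 0 of the 93 events passed between GEMIN5 and control with limma, against 0.0315% of all events, and 2 had an unadjusted p under 0.05. The change with GEMIN5 differed between polysomes and Input for 15 events (12 in FANCI, 1 each in RAD51C, CHEK2 and MUS81), against 2.95% of all events. Outside FANCI, RAD51C and CHEK2 it differed for 1 of 42 events. Polysome against Input gave 0 events in control cells (0.307% of all events, 8 members' events with an unadjusted p under 0.05) and 24 in GEMIN5 cells (13.2% of all events), of which 18 lay in FANCI. Outside FANCI, RAD51C and CHEK2, 3 of 42 events passed in GEMIN5 cells. As in Input, nothing is read from the counts in those 3 genes. One of the 24 was an exon of XRCC2, a mediator of recombination, at chr7:152657111-152657232. It stood at 53.6%, 60.0% and 68.2% in Input GEMIN5 and at 28.2%, 32.1%, 33.3% and 41.4% in Polysome GEMIN5 (log2 odds -1.55, SE 0.47, limma adjusted p = 0.0396), a call lost without any 1 of 7 libraries. At the minimum of 10 reads that chose the events, 23 events of members had a lowest library of 10 to under 11 reads and 33 had one of 9 to under 10 reads. In RAD54L, for example, 1 intron was kept at a lowest of 10 reads and 1 was left out at 9.

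At the level of whole genes, all 41 members were in the count table and 39 passed the filter on low counts. RAD51D, a mediator of recombination, was at 0 counts in every library and RAD50, part of the MRN complex at broken ends, at 0 or 1. Both still had reads spliced across their annotated introns: 92 to 142 per Input control library for RAD51D and 80 to 109 for RAD50. Each overlaps another counted gene on the same strand, and in all 19 of 41 members overlap a counted gene, so their counts are uncertain where reads were shared or set aside. CHEK2, FANCD2 and BRCA1 also have partial copies elsewhere in the genome. Per kilobase of annotated mRNA, UBE2T stood highest in Input control (mean 248 CPM per kb), followed by RAD51C (59.2) and CHEK2 (29.1), and BRCA2 stood lowest among tested members (0.0986).

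In Input, 13 of 39 tested members rose and 9 fell with GEMIN5 (edgeR's quasi-likelihood test, adjusted p under 0.05 over 12197 genes). Over all genes 51.5% passed, 27.1% higher and 24.3% lower, so the members' share lay near the background. These directions are relative to the TMM scaling: by library size alone the median of all genes shifts by -1.28 on the log2 scale in this comparison, and 0 members were higher and 34 lower. The median log2 fold change of the members was -0.04, against -0.01 over all genes. Without Input GEMIN5 replicate 2, 6 members were higher and 13 lower. The CPM of the 2 groups did not overlap for 27 of 39 members, against 58.9% of all genes. Of the 22 calls, 10 held in all 15 fits that left out 1 library: ATM, ATR, CHEK2, FANCE, FANCI, NBN, RBBP8, RNF8, TP53BP1 and XRCC2. The other 12 lost the call in at least 1 of these fits, FANCF, FANCM and XRCC3 among them without Input GEMIN5 replicate 2.

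The chromatin response genes moved apart in Input. TP53BP1 (chr15:43403061-43510728), which binds ubiquitylated nucleosomes at breaks, was at 9.02, 8.20, 8.55 and 10.1 CPM in Input control and at 23.9, 18.7 and 18.7 CPM in Input GEMIN5. All 3 GEMIN5 libraries lay above all 4 controls, and the log2 fold change was 1.19 (SE 0.20, edgeR adjusted p = 7.44e-05). MDC1, the scaffold that reads phosphorylated H2AX, was at 15.6, 13.2, 11.8 and 13.0 CPM and at 23.7, 17.7 and 21.1 CPM (log2 fold change 0.64, SE 0.19, edgeR adjusted p = 0.00926). The MDC1 call was lost without Input GEMIN5 replicate 1 (edgeR adjusted p = 0.0556). RNF8 (chr6:37353979-37394734), the ubiquitin ligase that MDC1 recruits, fell instead. It was at 46.6, 46.1, 44.8 and 39.8 CPM in Input control and at 28.8, 29.97 and 28.1 CPM in Input GEMIN5 (log2 fold change -0.61, SE 0.11, edgeR adjusted p = 0.000149). RNF168, the ligase that acts after RNF8, was at 1.88 to 2.75 CPM in Input control and 3.27 to 3.74 CPM in Input GEMIN5 and did not pass the test.

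All 4 checkpoint kinases passed the test in Input, where 51.5% of all genes passed, 2 in each direction. ATR (chr3:142449007-142578733), the kinase of stalled forks, was at 6.48, 7.45, 7.03 and 5.94 CPM in Input control and at 14.4, 10.6 and 11.7 CPM in Input GEMIN5 (log2 fold change 0.87, SE 0.17, edgeR adjusted p = 0.000263). ATM, the kinase of double-strand breaks, was at 2.85, 2.81, 2.76 and 3.12 CPM and at 5.56, 5.73 and 5.09 CPM (log2 fold change 0.92, SE 0.20, edgeR adjusted p = 0.000898). Both upstream kinases were higher in every Input GEMIN5 library. Their targets were lower: CHEK2 was at 58.9, 56.9, 57.5 and 54.9 CPM and at 39.8, 42.1 and 34.4 CPM (log2 fold change -0.56, SE 0.15, edgeR adjusted p = 0.00469). CHEK1 was at 30.3, 28.7, 29.996 and 28.9 CPM and at 23.7, 22.3 and 21.7 CPM (log2 fold change -0.38, SE 0.16, edgeR adjusted p = 0.0457). The CHEK1 call was lost in 9 of the 15 fits that left out 1 library, with edgeR adjusted p up to 0.122, while its log2 fold change stayed between -0.61 and -0.36.

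Of the 4 tested genes of break ends and resection, 3 fell in Input and 0 rose, where 24.3% of all genes fell and 27.1% rose. With 4 genes this share was not tested against that of all genes. NBN, the MRN subunit that binds ATM, was at 18.5, 18.8, 15.4 and 16.3 CPM in Input control and at 10.6, 7.70 and 6.59 CPM in Input GEMIN5 (log2 fold change -1.04, SE 0.23, edgeR adjusted p = 0.000829). MRE11, the nuclease of that complex, was at 13.0, 14.0, 12.8 and 17.2 CPM and at 10.9, 8.68 and 8.38 CPM (log2 fold change -0.60, SE 0.19, edgeR adjusted p = 0.0126, lost without Input GEMIN5 replicate 3 at 0.0597). RBBP8, which encodes the resection factor CtIP, was at 38.7, 31.8, 30.6 and 33.4 CPM and at 24.9, 21.8 and 23.2 CPM (log2 fold change -0.53, edgeR adjusted p = 0.00289). The groups did not overlap for any of the 3, and the exonuclease EXO1 had a log2 fold change of -0.26 that did not pass.

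Of the 10 tested mediators of recombination, 4 rose and 1 fell in Input, near the 51.5% of all genes that passed (27.1% higher, 24.3% lower). RAD51C (chr17:58692573-58735611) was at 153, 163, 155 and 143 CPM in Input control and at 232, 257 and 235 CPM in Input GEMIN5 (log2 fold change 0.65, SE 0.12, edgeR adjusted p = 0.000203). Without Input GEMIN5 replicate 2 it was at 0.37 with an edgeR adjusted p of 0.0984. XRCC2 was at 11.8, 13.5, 13.1 and 12.7 CPM and at 20.9, 21.3 and 22.9 CPM, without overlap (log2 fold change 0.76, SE 0.12, edgeR adjusted p = 4.7e-05). RAD52, a strand-annealing protein, was at 4.93, 4.24, 4.96 and 4.42 CPM and at 6.12, 10.5 and 6.44 CPM (log2 fold change 0.71, edgeR adjusted p = 0.00779). The RAD52 value turned on Input GEMIN5 replicate 2, its highest library, without which it was 0.20 with an edgeR adjusted p of 0.458. PALB2, which joins BRCA1 to BRCA2, was the one that fell, from 4.63, 3.96, 2.48 and 4.35 CPM to 2.45, 1.15 and 2.69 CPM with overlapping groups (log2 fold change -0.85, SE 0.34, edgeR adjusted p = 0.0459, lost without any 1 of 8 libraries). XRCC3 rose by 0.37 on the log2 scale, and BRCA1, BRCA2, BARD1, BRIP1 and RAD54L had values between -0.61 and 0.05 that did not pass.

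Of the 8 Fanconi core genes, 3 rose and 1 fell in Input, again near the 51.5% of all genes that passed. UBE2T (chr1:202331544-202341984) was at 226, 224, 230 and 220 CPM in Input control and at 319, 351 and 363 CPM in Input GEMIN5 (log2 fold change 0.61, SE 0.12, edgeR adjusted p = 0.000408; 0.36 and 0.0843 without Input GEMIN5 replicate 2). The groups stood well apart. FANCE, the core subunit that contacts FANCD2, was at 17.2, 16.9, 16.9 and 19.3 CPM and at 11.9, 12.6 and 11.1 CPM (log2 fold change -0.57, SE 0.14, edgeR adjusted p = 0.00276). FANCM, the translocase of the core complex, rose by 0.62 on the log2 scale, and FANCF, which had 4 to 19 counts per library, rose by 1.49. Neither call held without Input GEMIN5 replicate 2, where FANCF had 0.77 (edgeR adjusted p = 0.252) and FANCM 0.51 (edgeR adjusted p = 0.101). XRCC3 moved there from 0.37 to 0.16 (edgeR adjusted p = 0.468). In the pair that receives ubiquitin, FANCI rose by 0.62 (SE 0.11, edgeR adjusted p = 7.49e-05) and FANCD2 had -0.04, which did not pass. Of the 7 genes of dissolution and nucleases, BLM rose and EME1 fell, where 27.1% of all genes rose and 24.3% fell. BLM, the helicase that dissolves recombination intermediates, was at 15.4, 15.3, 13.0 and 13.3 CPM and at 22.2, 25.7 and 20.2 CPM (log2 fold change 0.67, SE 0.18, edgeR adjusted p = 0.00468; 0.34 and 0.127 without Input GEMIN5 replicate 2). EME1, the partner of MUS81, had -0.54, and MUS81 itself had 0.23, which did not pass. The EME1 call was lost in 4 of the 15 fits that left out 1 library, with edgeR adjusted p up to 0.124.

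**Figure D3:**
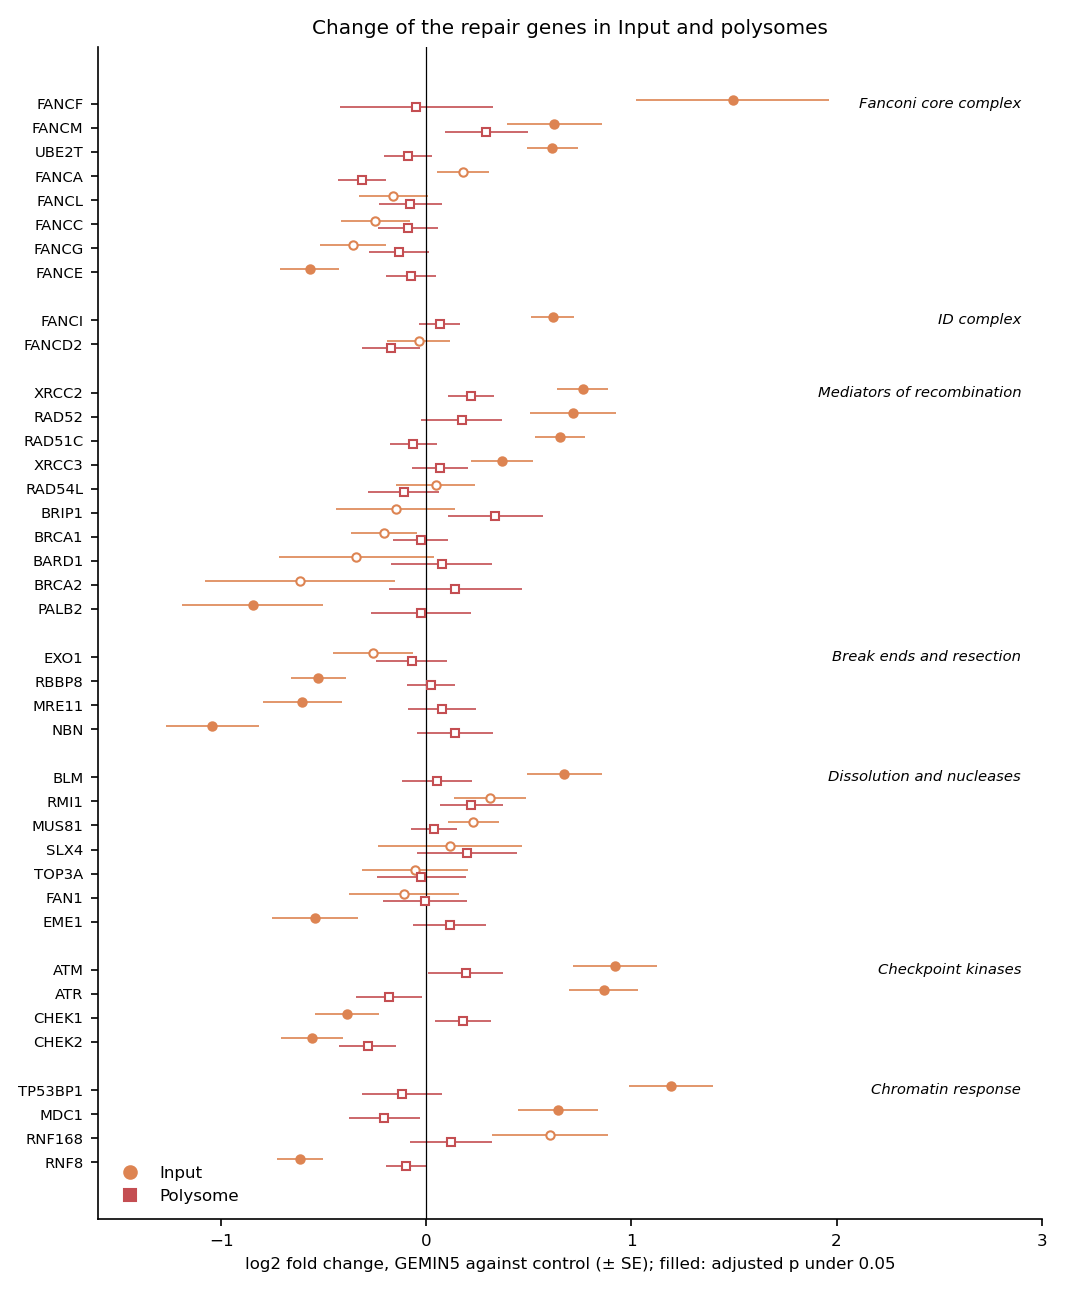
Log2 fold change ± SE of the 39 tested repair genes, GEMIN5 against control, in Input (circles) and in polysomes (squares), grouped by role, with filled symbols at an edgeR adjusted p under 0.05. After TMM scaling 13 circles are filled to the right and 9 to the left of 0 (0 and 34 by library size alone), and no square is filled.

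In polysomes, 0 of the 39 tested members passed edgeR's test between GEMIN5 and control, and DESeq2 also called 0. Over all genes 0.402% passed, 0.082% higher and 0.32% lower, and 1 member, FANCA, had an unadjusted p under 0.05 (log2 fold change -0.31, SE 0.12, edgeR adjusted p = 0.645). RAD51C was at 128, 134, 106 and 105 CPM in Polysome control and at 108, 108, 104 and 132 CPM in Polysome GEMIN5. UBE2T was at 169, 234, 165 and 188 CPM and at 174, 174, 185 and 177 CPM. Both genes overlapped between the groups, with log2 fold changes of -0.06 (SE 0.12) and -0.09 (SE 0.11). The members ranged from -0.31 to 0.34, and XRCC2 alone had groups that did not overlap (15.9 to 17.8 CPM in Polysome GEMIN5 and 12.6 to 15.8 CPM in Polysome control), against 3.35% of all genes. A change that misses the threshold does not show that levels were equal.

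The change with GEMIN5 differed between polysomes and Input for 15 members, 6 higher in polysomes and 9 lower, with edgeR's interaction test (over all genes 37.3% passed, 16.9% higher and 20.5% lower). This contrast shares its libraries with the 2 above. Among those that passed TP53BP1 had the lowest value, -1.31 (SE 0.28, edgeR adjusted p = 0.00121): its polysome libraries were at 3.43 to 7.60 CPM in control and 4.71 to 6.53 CPM with GEMIN5, below every Input library. ATR followed at -1.05 (SE 0.23, edgeR adjusted p = 0.00165), then MDC1 at -0.85, ATM at -0.73, RAD51C at -0.72 and UBE2T at -0.70. The ATM call was lost with RLE scaling (edgeR adjusted p = 0.0607), with DESeq2 (adjusted p = 0.104) and when genes of low counts were kept (edgeR adjusted p = 0.144). MDC1 was at 10.98, 13.8, 14.6 and 19.3 CPM in Polysome control and at 12.4, 13.7, 15.5 and 9.37 CPM in Polysome GEMIN5. ATM was at 1.84, 2.10, 2.96 and 2.19 CPM and at 2.88, 2.16, 2.58 and 2.87 CPM in the same groups. Both overlapped between the treatments there, unlike in Input. On the other side stood NBN at 1.18 (SE 0.29, edgeR adjusted p = 0.00367), MRE11 at 0.68, CHEK1 at 0.56, RBBP8 at 0.55, RNF8 at 0.51 and FANCE at 0.49. NBN was at 17.0, 22.7, 29.7 and 20.9 CPM in Polysome control, and its Polysome GEMIN5 libraries lay between 18.2 and 33.2 CPM. CHEK1 was at 19.2, 27.7, 26.2 and 26.8 CPM in Polysome control and at 28.0, 30.5, 33.4 and 21.1 CPM in Polysome GEMIN5. FANCE was at 16.3, 16.9, 21.6 and 17.8 CPM and at 18.4, 16.7, 19.0 and 15.0 CPM. All 3 overlapped between the treatments in polysomes. Of the 15 calls, 6 held in all 15 fits that left out 1 library: ATR, MDC1, NBN, RBBP8, RNF8 and TP53BP1. The other 9 lost it in at least 1, and FANCE, ATM, MRE11 and CHEK1 lost it in most of them. Their edgeR adjusted p then reached 0.111, 0.240, 0.106 and 0.0867. With the replicate number as a block, ATM, FANCE and MRE11 also missed the threshold (edgeR adjusted p = 0.0628, 0.0698 and 0.0746). By library size alone, 32 members were higher and 0 lower.

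**Figure D4:**
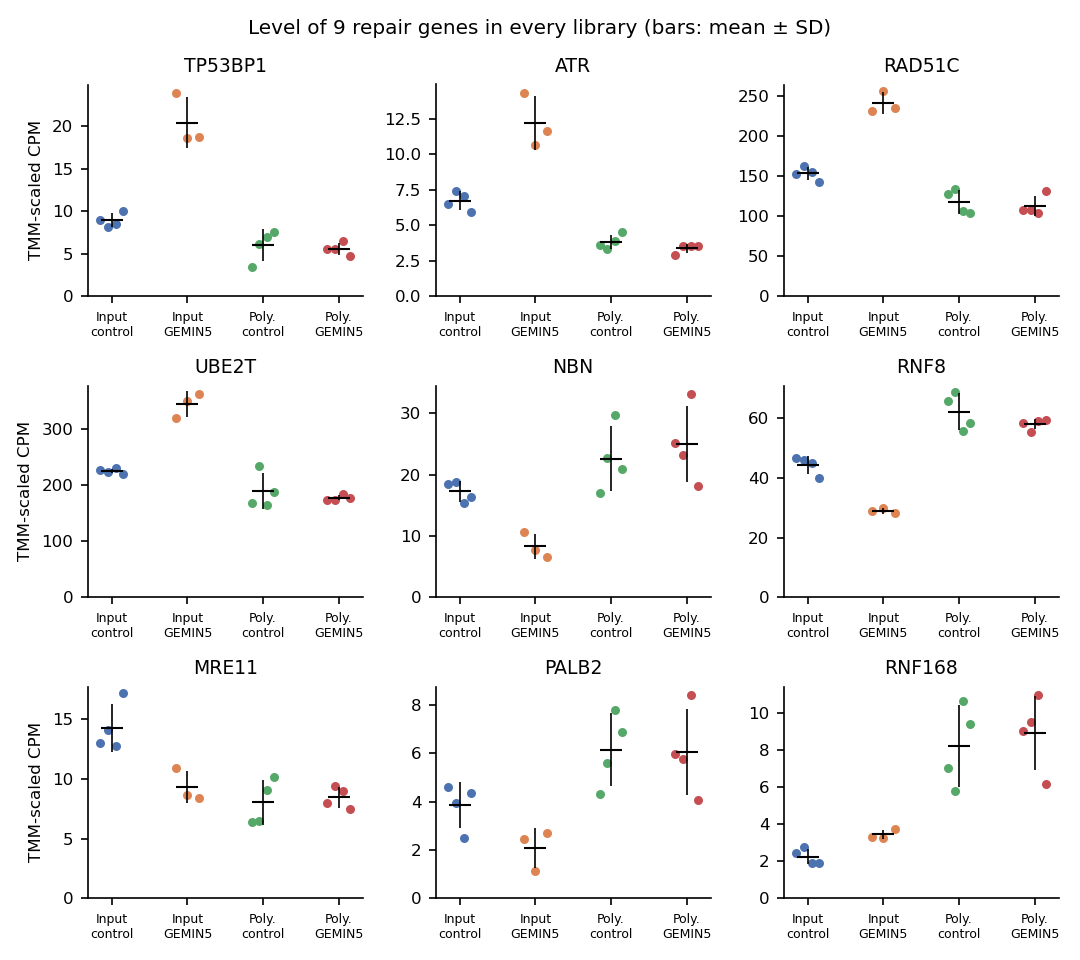
TMM-scaled CPM of 9 repair genes in each of the 15 libraries by group, with bars at the mean ± SD. TP53BP1, ATR, RAD51C and UBE2T are highest in Input GEMIN5, and NBN and RNF8 lowest.

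In untreated cells, 7 members were higher and 12 lower in polysomes than in Input with edgeR (over all genes 43.2% passed, 24.1% higher and 19.1% lower). By library size alone 20 were higher and 0 lower, with the median of all genes shifted by 0.52. The CPM of the 2 groups did not overlap for 20 members, against 43.4% of all genes. RNF168 (chr3:196468783-196503768) stood highest: it was at 2.47, 2.75, 1.93 and 1.88 CPM in Input control and at 7.04, 5.78, 10.6 and 9.42 CPM in Polysome control (log2 fold change 1.86, SE 0.23, edgeR adjusted p = 4.41e-06). RNF8 was at 65.8, 68.9, 55.7 and 58.4 CPM in Polysome control, above all of its Input libraries (log2 fold change 0.49, SE 0.10, edgeR adjusted p = 0.000579). BRCA1, a ubiquitin ligase of recombination, was at 11.9, 10.9, 11.1 and 11.2 CPM in Input control and at 14.0, 14.0, 18.2 and 18.3 CPM in Polysome control (log2 fold change 0.52, SE 0.14, edgeR adjusted p = 0.00497). Its partner BARD1 had 0.90 (edgeR adjusted p = 0.0118). These 3 ubiquitin ligases and BARD1 were joined by the nuclease FAN1 at 0.74, PALB2 at 0.68 and RBBP8 at 0.31. FAN1 was at 3.85, 3.21, 3.72 and 4.13 CPM in Input control and at 5.20, 5.78, 6.02 and 7.84 CPM in Polysome control. PALB2 was at 4.31, 5.62, 7.82 and 6.87 CPM in Polysome control, and RBBP8 at 40.5, 40.9, 44.4 and 40.8 CPM. FAN1 and RBBP8 did not overlap with Input control, and PALB2 did. PALB2 lost its call without any 1 of 4 libraries, and RBBP8 without any 1 of 8. In edgeR, RBBP8 also missed the threshold under RLE scaling (adjusted p = 0.0586), when genes of low counts were kept (adjusted p = 0.0580) and when the fit held just these 2 groups (adjusted p = 0.0610).

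The members lower in polysomes of untreated cells were MRE11, ATR, RAD52, BLM, CHEK2, FANCL, FANCA, FANCD2, FANCG, TP53BP1, FANCI and RAD51C, with log2 fold changes from -0.83 to -0.38. ATR was at 3.62, 3.31, 3.91 and 4.50 CPM in Polysome control, below all of its Input control libraries (log2 fold change -0.81, SE 0.16, edgeR adjusted p = 0.000433). MRE11 was at 6.41, 6.46, 9.07 and 10.2 CPM in Polysome control (log2 fold change -0.83, SE 0.17, edgeR adjusted p = 0.000576). FANCL, the ubiquitin ligase of the core complex, was at 34.2, 37.1, 36.3 and 32.7 CPM in Input control and at 14.7, 21.2, 24.7 and 24.2 CPM in Polysome control (log2 fold change -0.72, SE 0.15, edgeR adjusted p = 0.000837). Of the 8 Fanconi core genes 0 were higher, 3 lower and 5 did not pass, and 2 of 2 of the ubiquitin-receiving pair were lower. Over all genes 43.2% passed, 19.1% lower, and by library size alone 0 members were lower in this comparison. RAD52 was at 2.60, 2.47, 3.05 and 2.68 CPM in Polysome control (log2 fold change -0.77), BLM at 5.96, 8.40, 8.89 and 10.5 CPM (-0.75) and CHEK2 at 23.8, 35.9, 39.3 and 37.9 CPM (-0.74). All 3 lay below their Input control libraries. RAD51C was at -0.38, and TP53BP1 lost its call in at least 1 fit that left out a library. UBE2T had -0.25 (edgeR adjusted p = 0.0877), and DESeq2 called it (-0.28, adjusted p = 0.0377).

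In GEMIN5 cells, 10 members were higher and 15 lower in polysomes than in Input with edgeR (over all genes 67.6% passed, 32.6% higher and 35% lower), and by library size alone 35 were higher and 0 lower, with the median of all genes shifted by 1.79. The CPM of the 2 groups did not overlap for 26 members, against 64.4% of all genes. NBN was at 10.6, 7.70 and 6.59 CPM in Input GEMIN5 and at 25.1, 23.2, 33.2 and 18.2 CPM in Polysome GEMIN5 (log2 fold change 1.57, SE 0.23, edgeR adjusted p = 6.1e-06). PALB2 was at 5.99, 5.78, 8.41 and 4.06 CPM in Polysome GEMIN5 (log2 fold change 1.50), and RNF168 at 9.04, 9.53, 10.99 and 6.17 CPM (1.37). These 3 genes had no polysome library within their Input GEMIN5 range. RNF8 was at 58.4, 55.4, 59.1 and 59.3 CPM (log2 fold change 1.00) and RBBP8 at 38.9, 42.5, 51.6 and 36.3 CPM (0.86), above all of their Input GEMIN5 libraries as well. FAN1 overlapped, with 6.44, 7.09, 7.19 and 3.95 CPM in Polysome GEMIN5 and 3.56, 4.58 and 2.25 CPM in Input GEMIN5 (log2 fold change 0.84). ATR was at 2.88, 3.57, 3.52 and 3.52 CPM in Polysome GEMIN5, and TP53BP1 at 5.54, 5.54, 6.53 and 4.71 CPM. Both lay below every Input GEMIN5 library, with log2 fold changes of -1.86 (SE 0.17, edgeR adjusted p = 2.18e-08) and -1.87 (SE 0.21, edgeR adjusted p = 2.08e-07). FANCA, the scaffold of the core complex, was at 31.7, 31.4 and 26.5 CPM in Input GEMIN5 and at 12.3, 12.1, 13.4 and 15.6 CPM in Polysome GEMIN5 (log2 fold change -1.16). BLM was at 7.91, 9.25, 10.99 and 6.88 CPM there (-1.37), and RAD52 at 3.16, 3.66, 2.40 and 2.98 CPM (-1.32). None of the 3 overlapped with Input GEMIN5. RAD51C had -1.09 and UBE2T -0.95. Of the 25 calls, 20 held in all 15 fits that left out 1 library, and CHEK2, EXO1, FAN1, FANCM and XRCC2 did not. This contrast shares the Input GEMIN5 libraries with the comparison in Input.

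Reads spliced across the annotated introns of each principal transcript gave a second measure of the same libraries. Of the 22 members called in Input, 20 had at least 100 spliced reads in the 2 groups, and 18 of these changed in the same direction by spliced reads as by gene counts. BLM and XRCC3 were the exceptions, at -0.05 and -0.17 by spliced reads. For TP53BP1 the log2 ratio of spliced reads was 1.32, for ATR 0.87, for UBE2T 0.58, for RAD51C 0.41, for NBN -0.81 and for RNF8 -0.76. RAD51D, which has no gene counts, was at 15.9 CPM of spliced reads in Input GEMIN5 and 7.78 in Input control, and RAD50 at 5.16 and 6.20. RAD52, with 2 to 5 spliced reads in an Input GEMIN5 library, could not be compared in this way.

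The place of the spliced reads along the mRNA differed between Input GEMIN5 and the other groups. The last intron of TP53BP1 had 0.27 to 0.82 CPM of spliced reads in Input control and 4.11 to 6.16 CPM in Input GEMIN5, while its first 8 matched introns together had means of 0.30 and 0.04 CPM. ATR, over 46 introns, had 0.52 to 0.99 CPM at its last intron in Input control and 2.697 to 2.93 CPM in Input GEMIN5. In both genes the added reads lay at the 3′ end. NBN had spliced reads in the middle 5 of its 15 introns at a mean of 4.10 CPM in Input control and 0.67 CPM in Input GEMIN5, and in its last 5 introns at 4.70 and 5.09 CPM. MRE11 showed the same order, with 5.08 and 1.34 CPM in its middle introns and 4.13 and 5.84 CPM in its last ones. RNF8 had 4.02 and 0.84 CPM in its first 2 introns and 3.79 and 4.23 CPM in its last. In these genes the mean near the 3′ end was as high or higher in Input GEMIN5, and the mean farther from it was lower. In polysomes, NBN had 4.08 CPM in its middle introns in control and 4.75 CPM with GEMIN5.

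FANCI, RAD51C and ATM had reads near the 5′ end as well. FANCI had 22.1 CPM of spliced reads in its first 12 introns in Input control and 40.3 CPM in Input GEMIN5, 6.78 and 2.95 CPM in its middle 12, and 21.8 and 40.1 CPM in its last 12. The first intron of RAD51C had a mean of 16.9 CPM in Input control and 35.9 CPM in Input GEMIN5, its introns 4 and 5 together had 24.1 and 25.7 CPM, and its last 3 had 35.6 and 52.0 CPM. In ATM, 26 of 62 introns could be matched, and all of its spliced reads in Input lay in the first part of the gene, at 1.25 CPM in Input control and 3.60 CPM in Input GEMIN5. Over the 37 members with at least 6 matched introns, the middle part of the mRNA held 27.5% ± 0.28 of the spliced reads in untreated Input (SD over 4 libraries) and 19.9% ± 0.041 in Input GEMIN5 (SD over 3 libraries). The same share was 27.6% ± 0.75 (SD, n = 4) in Polysome control and 28.2% ± 1.1 (SD, n = 4) in Polysome GEMIN5. Over 9615 genes of all kinds it was 35.3% and 35.0% in the 2 Input groups. The log2 ratio of reads at the last to the first intron, over 39 members, was 0.75 to 0.98 in Input control and 1.11 to 1.33 in Input GEMIN5, without overlap, and 0.80 to 1.39 across Polysome control. Over all genes it was 0.43 to 0.54 in Input control and 0.55 to 0.64 in Input GEMIN5, without overlap as well. With the introns of a gene split into a first, a middle and a last part, the log2 ratio of the last part to the first had a mean of 0.66 in Input control (0.57 to 0.72) and 0.99 in Input GEMIN5 (0.89 to 1.19) over the 37 members. Over the 9615 genes it was 0.56 (0.51 to 0.58) and 0.83 (0.76 to 0.93), so it moved the same way over all genes. These values are given without a test, and their part in the gene-level changes was not tested.

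**Figure D5:**
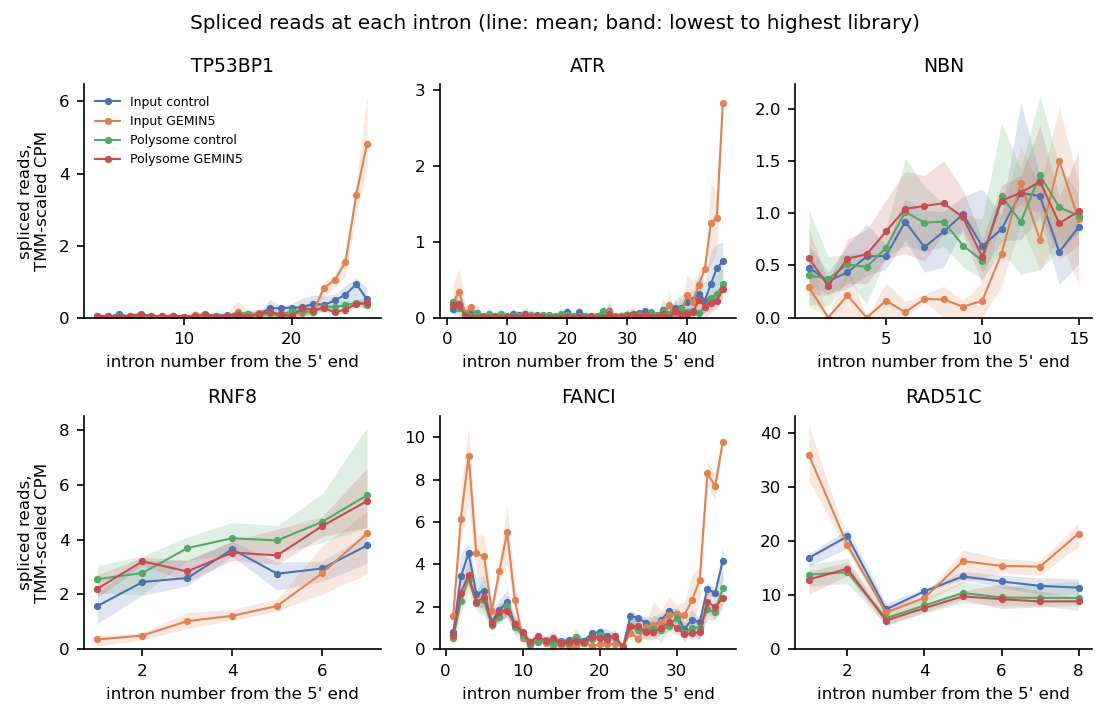
Spliced reads in TMM-scaled CPM at each intron of 6 repair genes, numbered from the 5′ end, with lines at the group means and bands from the lowest to the highest library. Input GEMIN5 rises above the other groups at the last introns of TP53BP1, ATR and FANCI and falls below them over the first and middle introns of NBN and RNF8.

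The members' mRNAs are long, with a median of 4666 bases (range 908 to 13147) against 3203 over all genes tested. Over the 39 members, Spearman's rank correlation of the log2 fold change with mRNA length was 0.10 in Input and 0.08 for polysomes against Input in control cells, against -0.20 and 0.33 over 12092 genes. The genes share their libraries, so these values are a description.

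Of 70 further genes of the same pathways, 66 were tested. In Input 22 rose and 18 fell, with a median of 0.03, where 51.5% of all genes passed. In polysomes 0 of 66 passed between GEMIN5 and control with edgeR, against 0.402% of all genes (3 had an unadjusted p under 0.05). These directions too are relative to the TMM scaling: by library size alone 5 rose and 54 fell in Input. The largest rises in Input were of CENPX, a histone-fold partner of FANCM, at 2.13, RPA3, the small subunit of the single-strand binding protein RPA, at 2.10, FAAP20 of the Fanconi core at 2.06 and SEM1, a partner of BRCA2, at 1.87. Those that fell included UHRF1 at -1.73, the BLM partner RMI2 at -1.61 and the deubiquitylase BRCC3 at -1.45. USP1, which removes ubiquitin from FANCD2 and FANCI, fell by 1.09. By library size alone these 8 genes kept their directions in Input, with CENPX at 0.80, RPA3 at 0.80, FAAP20 at 0.73 and SEM1 at 0.57. This follows from the choice of genes and is no check on it. That scaling shifts the median of all genes by -1.28, so falls could hardly turn, and these rises were the largest. By edgeR, 25 of the 66 differed in their GEMIN5 effect between polysomes and Input, 9 higher and 16 lower (37.3% of all genes passed), and by library size alone 51 were higher and 4 lower. Polysomes of untreated cells held 14 of them higher and 11 lower than Input, with USP1 at 1.19 (43.2% of all genes passed), and by library size alone 35 were higher and 0 lower. In GEMIN5 cells 21 were higher and 25 lower (67.6% of all genes passed), and by library size alone 58 and 3. The shares of the further genes were not tested against those of all genes.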

How the data were processed

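Raw gene counts and a table of splicing events were used as the authors deposited them. The tools named in the submitters' processing notes are STAR 2.7.10a (aligner) and featureCounts, with GRCh38; strand use in counting is not given in the sources used here, although the library kit is stranded per the labels' protocols. The length given for each of the 21519 genes spans the whole gene. The deposited splicing table holds the percent spliced in and, in its quality column, inclusion and exclusion read scores that are read numbers; both were used.

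Genes were tested with edgeR 4.0.16 (robust quasi-likelihood, filterByExpr, TMM) in 1 fit of the 15 libraries with 4 group means, and Benjamini-Hochberg adjustment over 12197 genes. The standard error is the log2 fold change divided by the square root of F. Events with at least 10 reads in all libraries, and a PSI that reached 5% in some library and was 95% or less in some library, were tested with limma 3.58.1, with its trend and robust options, on the log2 odds of both read numbers plus 0.5. Library totals of 11191417 to 18407933 counts set the precision. Alternatives were RLE scaling, library size only, DESeq2 1.42.0, no filters, at least 20 reads, 1 read added, only the groups compared, a replicate block and leaving out each library. Spliced reads are exclusion reads of retained-intron events matched to the principal transcript of GENCODE release 29; sequences were read from its transcripts. The scripts were tested on simulated data.

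Members, their roles, the list of 70 related genes and the marker lists were chosen with earlier results of these data known. Per comparison, values in every library were given for up to 6 called members in each direction with the largest log2 fold change. Members needed a mean of at least 2 CPM over all libraries. Values were also given for the 2 members of highest mean CPM and for up to 6 called events per comparison. FANCI, CHEK2 and RAD51C were described by 1 intron each, the tested event of largest PSI range, and the FANCI exons together, without a test.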

Additional observations from a re-analysis of the deposited data

Results flagged for a closer look

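In 4 of 66 groups of 4 libraries, over 22 repair genes whose values were given in every library, 1 library stood far from the rest, and chance flags about 1 in 20 groups. ATR was at 2.88 CPM in Polysome GEMIN5 replicate 1, where the others lay between 3.52 and 3.57. RAD51C was at 132 CPM in Polysome GEMIN5 replicate 4, where the others lay between 104 and 108. FANCE was at 19.3 CPM in Input control replicate 4 and at 16.9 to 17.2 in the others. RBBP8 was at 44.4 CPM in Polysome control replicate 3 and at 40.5 to 40.9 in the others.

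The GEMIN5 effect differed between polysomes and Input by edgeR's interaction test for 15 genes. On the log2 scale it was lower in polysomes for TP53BP1 (-1.31), ATR (-1.05), MDC1 (-0.85), ATM (-0.73), RAD51C (-0.72), UBE2T (-0.70), FANCI (-0.55), XRCC2 (-0.55) and FANCA (-0.49). It was higher for NBN (1.18), MRE11 (0.68), CHEK1 (0.56), RBBP8 (0.55), RNF8 (0.51) and FANCE (0.49). The calls of ATM, MRE11, CHEK1 and FANCE were lost in most fits that left out 1 library. The log2 odds of MUS81 exon 13 differed by 3.62 (limma adjusted p = 0.0473), a call that was lost without any 1 of 13 libraries.

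RAD50 and RAD51D, which had 0 or 1 gene counts per library and were not tested, had spliced reads in the splicing table. The lowest Input control library held 80 for RAD50 and 92 for RAD51D.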

How the results depend on the processing

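The scaling had the widest effect. By library size alone the counts of repair genes were 0 higher and 34 lower in Input, 32 higher and 0 lower for the difference, 20 and 0 for polysomes against Input in control cells, and 35 and 0 in GEMIN5 cells. The values that follow cover only the genes chosen by rule in each comparison. Other members that rose in Input, such as FANCI and MDC1, are not listed, and by library size alone they were not called higher either. Among the chosen genes, the log2 fold changes that turned in Input were then TP53BP1 -0.073, ATM -0.36, ATR -0.40, XRCC2 -0.53, RAD52 -0.59, BLM -0.62, UBE2T -0.68 and RAD51C -0.64. For the difference they were ATR 0.21, MDC1 0.42, ATM 0.54, RAD51C 0.58 and UBE2T 0.61. For polysomes against Input they were UBE2T 0.26 and RAD51C 0.13 in control cells, and BLM 0.45, RAD52 0.50, FANCA 0.63, RAD51C 0.71 and UBE2T 0.86 in GEMIN5 cells. No named gene or event that passed the test turned under the other alternatives run. For GEMIN5 against control in polysomes, where neither gene passed the test, UBE2T ran from -0.15 to 0.03 and RAD51C from -0.14 to 0.0011 when 1 library was left out. RLE scaling, DESeq2, no filter on low counts and only the groups compared kept the gene counts within 1.5 times. The call of RBBP8 in untreated cells was lost under 3 of these 4. The call of ATM in the difference was lost under RLE scaling, DESeq2 and no filter on low counts. A fit of only 2 groups cannot give the difference, so it could not be run for ATM there. DESeq2 also called UBE2T for polysomes against Input in control cells (adjusted p = 0.0377). The scaling of the further pathway genes by library size was chosen after seeing the data. Without the PSI filter, events called were 102 in Input (37% of 276, against 45.2% of 76301 events), 68 for the difference (24.6% against 33.1%), 2 for polysomes against Input in control cells (0.725% against 2.36%) and 107 in GEMIN5 cells (38.8% against 46.3%). Each of these 4 shares lay below that of all events.

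Leaving out 1 library gave 6 to 13 higher and 6 to 13 lower genes in Input, 3 to 8 higher and 3 to 10 lower for the difference, 5 to 9 and 11 to 15 for polysomes against Input in control cells, and 8 to 13 and 12 to 16 in GEMIN5 cells. The low ends of the Input rises and of the falls in the difference came without Input GEMIN5 replicate 2. The 3 higher genes in the difference came without any 1 of 6 libraries (Input control replicate 2, Input GEMIN5 replicate 3, replicate 1 of Polysome control, and replicates 1, 2 and 3 of Polysome GEMIN5). Events called ran from 21 to 28 in Input, 8 to 17 for the difference and 16 to 28 for polysomes against Input in GEMIN5 cells, and 0 in the other 2 comparisons. Spearman's rank correlation of the GEMIN5 effect in polysomes with mRNA length ran from -0.0178 (without Polysome GEMIN5 replicate 3) to 0.294. The difference of the Input groups in the last-to-first intron ratio, 0.31, ran from 0.26 to 0.36.

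With the replicate number as a block, 12 genes were higher and 8 lower in Input, and 8 events were called for the difference in place of 15. Same-numbered libraries had deviations correlated between -0.56 and 0.49 (21 pairs), so the numbers were not taken to pair samples. Depth limits genes at a few counts per library, such as FANCF, and events near 10 reads. The causes of these changes were not tested.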
